A study of Mus musculus with 29 samples.

Results

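T cells made up 2126 of the 55268 cells in 18 Drop-seq libraries from mouse brain, within a series of 29 libraries and 106977 cells that also includes 11 blood libraries. They are all the brain cells to which the authors gave the parent code Tc, in 7 subtypes coded Tc1 to Tc7. All mice were C57BL/6J, and none of the labels gives a transgene. Young males of 8 to 10 weeks had sham surgery (4 libraries, day 2) or stroke, made by blocking the middle cerebral artery for a time (4 libraries at day 2 and 4 at day 14). Aged mice of 17 to 20 months, of both sexes, had sham surgery (1 male and 1 female library, day 2) or stroke (1 male and 2 female libraries at day 2 and 1 female library at day 14). Each library came from 4 to 5 pooled hemispheres, given in the cell tables as ipsilateral for all the stroke libraries, so that a replicate is a pool and not 1 animal. Sham brains were collected at day 2 alone, so that day 14 against sham joins the stroke with the time since surgery.

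CD45-high leukocytes, microglia and endothelial cells were sorted and then mixed. A share of all cells therefore depends on how the fractions were mixed. The sorted numbers were given for 2 libraries: CD45-high cells were 20.3% of the sorted cells in the male aged sham library and 75.0% in the second female library of aged stroke day 2. T cells are reported below both as a share of all cells and as a share of the leukocytes other than microglia, a total that the numbers of microglia and endothelial cells do not enter.

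T cells recognise peptides held on MHC molecules through a receptor made of variable chains and the invariant CD3 chains, which carry the signal into the cell. Few of them are found in the healthy brain, and they enter the tissue from blood after an injury to it. CD4 cells direct other immune cells, CD8 cells kill their targets, gamma delta T cells use another pair of receptor chains and can secrete interleukin 17, and regulatory T cells, which depend on the transcription factor Foxp3, restrain the other T cells.

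The libraries held 43 to 356 T cells each, with the exception of the fourth replicate of young stroke day 2, which held 12. That library stays in the shares of all cells, and it was left out of subtype shares and gene tests, leaving 3 day 2 libraries there. Summed counts per library ran from 2531 to 215859. The median T cell had 371 counts in young sham, 548 at day 2, 548 at day 14, and 490, 494 and 425 in the aged sham, stroke day 2 and stroke day 14 libraries. The median share of mitochondrial counts in a T cell differed between libraries of 1 group: it was 0.678%, 5.15%, 4.87% and 6.14% in the young sham libraries, 0.503%, 0.391%, 3.77% and 0.90% at day 2 and 0.519%, 0.266%, 2.69% and 4.05% at day 14. On both stroke days replicates 1 and 2 were low and replicate 3 was high, and its part in the results was not tested. No T cell barcode was shared between any 2 of the libraries. Levels are given in CPM, counts per 1000000 counts of the cells summed. Markers of other cells summed, in the T cells of the young libraries, to 42.0 to 732 CPM for 10 microglial genes, 0 to 447 CPM for 10 neutrophil genes and 0 to 471 CPM for 9 B cell genes, of which Cd79a, Ms4a1 and Pax5 were at 0 throughout. Higher sums were reached by 8 dendritic cell genes (51.0 to 1392 CPM, the highest in a sham library; Flt3, Xcr1 and Clec9a at 0 throughout), 10 monocyte and macrophage genes (224 to 1990 CPM) and 9 NK cell genes (263 to 1061 CPM). In 1 of the 2 aged sham libraries the microglial genes reached 4989 CPM, and the dendritic cell genes reached 2208 CPM in an aged sham library.

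The label was checked against the CD3 chains, encoded by Cd3d, Cd3e and Cd3g on chromosome 9. In 6 of the 7 subtypes, from 54.8% (Tc1) to 69.0% (Tc4) of the cells had a count of at least 1 CD3 chain. In Tc6 only 25 of 226 cells did, which is 11.1% (exact binomial 95% interval 7.29% to 15.9%). Natural killer (NK) cells, which lack CD3 on their surface, gave 3.60% (19 of 528), and B cells 0.738%. Median depths were 532.5 counts in Tc6, 383 to 681.5 in the other subtypes, 564.5 in NK cells and 367.5 in B cells. With each cell thinned to 300 counts the share was 6.81% in Tc6, 39.1% to 51.6% in the others and 1.41% in NK cells; this left out 35 Tc6 cells, 18 to 231 cells of each other subtype and 102 NK cells.

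The CD3 genes summed to 219 CPM in Tc6 (exact Poisson 95% interval 151 to 308, counting error only), against 1679 in Tc7 and 2169 to 2592 in the other 5 subtypes. Trac, the constant part of the alpha chain, stood at 73.7 CPM in Tc6 and at 608 to 2445 CPM elsewhere. A count of any receptor constant chain (alpha, beta, gamma or delta) was present in 51.8% of Tc6 cells (117 of 226). Such a count was present in 51.7% of NK cells and in 74.3% (Tc7) to 91.5% (Tc4) of the other subtypes. The 16 genes of the T cell receptor complex and its signalling summed to 2325 CPM in Tc6 and to 6479 to 11005 CPM in the others. The data thus go against the T cell label for Tc6. It is called Tc6 below, it stays in the counts because the authors' code includes it, and T cell shares are given with and without it.

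**Figure D1:**
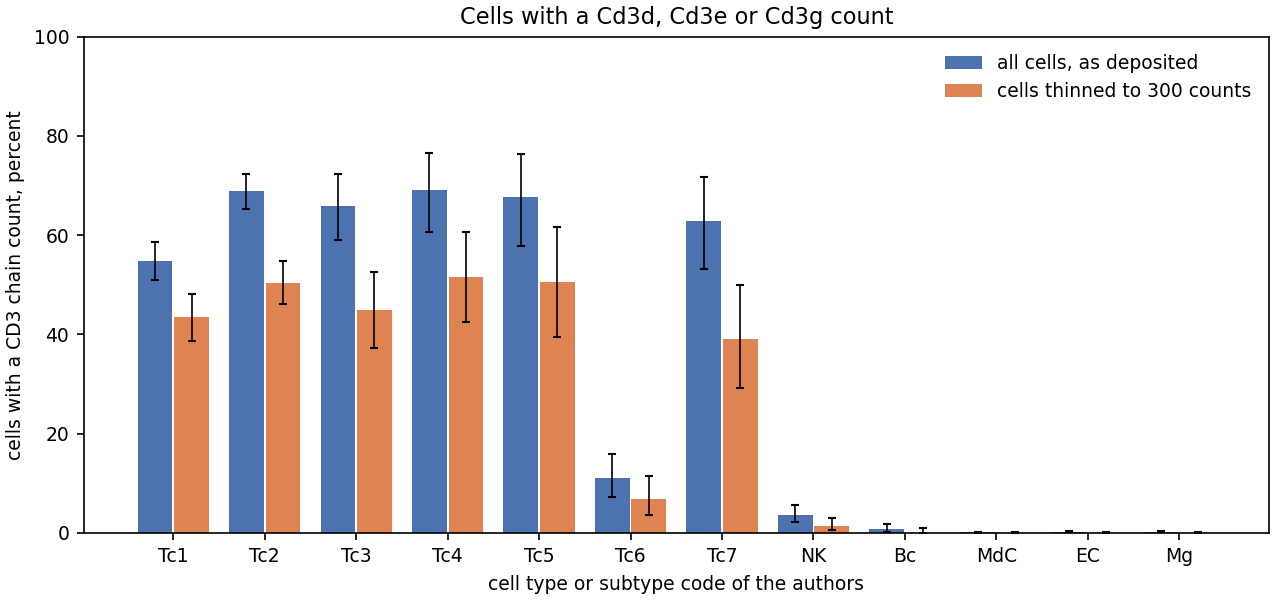
Percent of cells (vertical axis) with a Cd3d, Cd3e or Cd3g count, in the 7 T cell subtypes and in 5 other brain cell types (horizontal axis, the authors' codes: NK natural killer, Bc B, MdC monocyte-derived, EC endothelial, Mg microglia). Bars are pooled cells with exact binomial 95% intervals, as deposited and after thinning to 300 counts. Tc6 stands at 11.1%, between NK cells at 3.60% and Tc1 at 54.8%.

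The subtypes were defined by the authors on these cells, so the genes that lead them describe the subtypes and are not tested. Tc1 (673 cells, 31.7% of the T cells) had its highest ratios for Rflnb, at 126 against 18.3 CPM in the other T cells, and Tnfsf8, at 182 against 32.2 CPM, and genes of circulating cells, and Cd4, were among its 15 leading genes. S1pr1, the receptor by which lymphocytes leave tissue, stood at 272 against 57.9 CPM, the transcription factor Tcf7 at 324 against 102 CPM, and Cd4 at 219 against 69.3 CPM. Tc1 was not of CD4 cells alone, with Cd8a at 210 and Cd8b1 at 212 CPM, and Cd4 was as high in Tc5 (239 CPM). Cd40lg, the ligand with which helper cells activate B cells, stood at 133 against 45.0 CPM. Tc2 (656 cells, 30.9%) was led in ratio by receptor genes that NK cells also use, with Klra6 at 61.1 against 3.22 CPM, Cd160 at 199 against 20.3 CPM and Klrc1 at 111 against 11.5 CPM. Genes of cytotoxic cells followed at higher levels, with the chemokine Ccl5 at 8554 against 1646 CPM, the granule protein gene Nkg7 at 2269 against 545 CPM, Cd8b1 at 998 against 233 CPM and Cd8a at 768 against 184 CPM.

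Among the smaller subtypes, Tc4 (142 cells, 6.68%) held the gamma delta genes. The delta chain gene Trdc stood at 2061 CPM against 56.7 CPM, Il17a at 1345 against 35.5 CPM and the scavenger receptor gene Cd163l1 at 1292 against 14.2 CPM. Tc5 (105 cells, 4.94%) held the regulatory genes. Tnfrsf4, which encodes the costimulatory receptor OX40, stood at 2158 against 110 CPM, the inhibitory receptor gene Ctla4 at 1996 against 152 CPM, Ikzf2 at 721 against 104 CPM and Foxp3 at 313 against 13.2 CPM. Tc7 (113 cells, 5.32%) was led by genes of dividing cells, with Pclaf at 1010 against 18.9 CPM and Birc5 at 763 against 14.9 CPM.

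Tc6 (226 cells, 10.6%) was led by Calca, which encodes the precursor of calcitonin and of calcitonin gene-related peptide, at 2859 against 2.46 CPM. Hes1, a repressor downstream of Notch, stood at 1585 against 5.91 CPM, the interleukin 33 receptor gene Il1rl1 at 1149 against 44.6 CPM, the interleukin 25 receptor gene Il17rb at 293 against 6.55 CPM and the cytokine gene Csf2 at 360 against 2.46 CPM. Its sum over the type 2 list was 2835 CPM. It is called here by its code and by these genes.

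**Figure D2:**
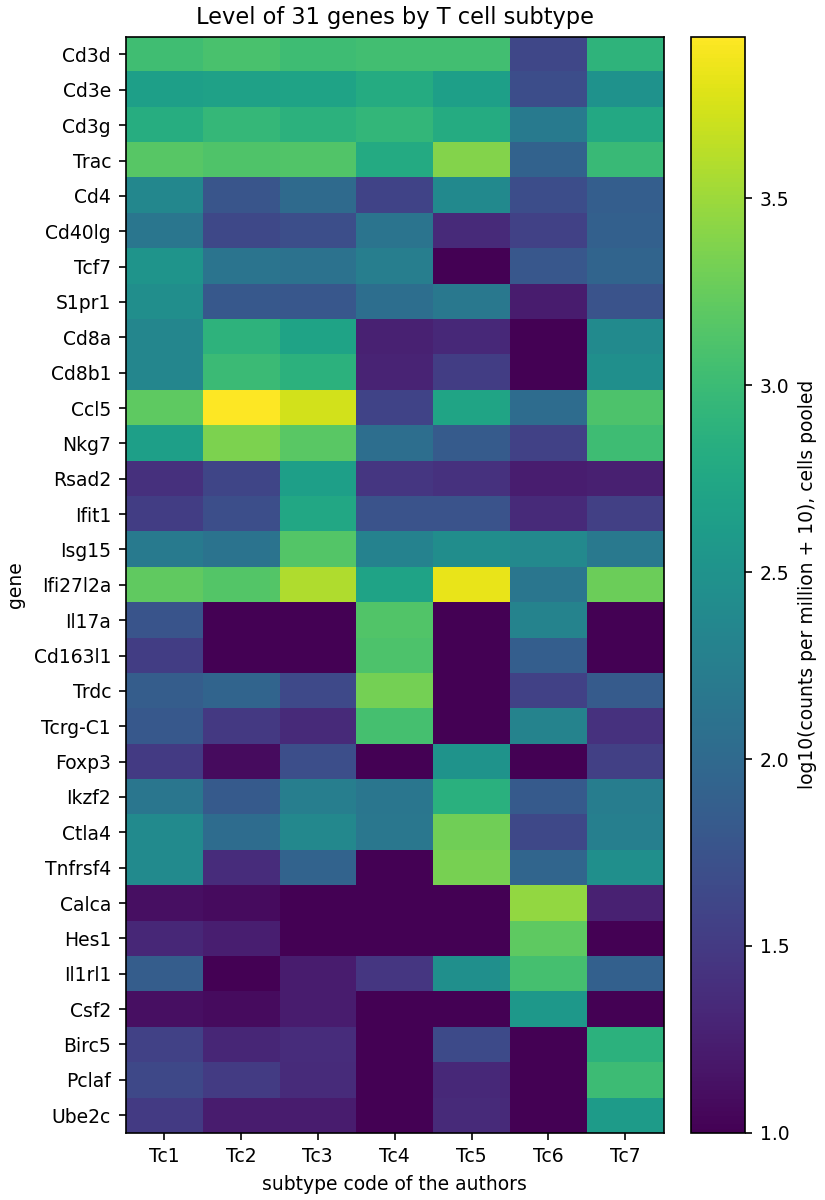
Level of 31 genes (rows) in the 7 subtypes (columns), as log10 of CPM plus 10 over the pooled cells of each subtype; brighter is higher. The CD3 genes and Trac are bright in every subtype but Tc6, and most of the leading genes are brightest in 1 subtype, such as Calca at 2859 CPM in Tc6; Ifi27l2a is bright in both Tc3 and Tc5.

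Tc3 (211 cells, 9.92%) was led by interferon-induced genes. Isg15, a ubiquitin-like modifier, stood at 1382 against 161 CPM in the other T cells, Ifit3 at 864 against 44.6 CPM, Ifit1 at 557 against 31.8 CPM, Rsad2, the antiviral enzyme viperin, at 439 against 20.0 CPM, and the chemokine Cxcl10 at 508 against 51.3 CPM. Summed over the 12 genes of the interferon list, the level was 11550 CPM in Tc3 and 9084 CPM in Tc5, and 1020 to 2960 CPM in the other subtypes. Ifi27l2a alone made up 6805 CPM of the sum in Tc5 and 3824 CPM in Tc3, and the other 11 genes summed to 2279 CPM in Tc5, 7726 CPM in Tc3 and 889 to 1359 CPM in the other subtypes. Genes induced by type I interferon commonly carry an interferon-stimulated response element. Promoters of 4 leading genes of Tc3 are shown because these genes set the subtype apart. Each is 250 bases before the gene's start from RefSeq (GRCm38.p6), 5′ to 3′ on the gene's strand. Capitals mark matches to GAAANNGAAA on either strand (TTTCNNTTTC where it lies on the other), overlapping matches run together.
Isg15, chr4:156200819-156201068, minus strand: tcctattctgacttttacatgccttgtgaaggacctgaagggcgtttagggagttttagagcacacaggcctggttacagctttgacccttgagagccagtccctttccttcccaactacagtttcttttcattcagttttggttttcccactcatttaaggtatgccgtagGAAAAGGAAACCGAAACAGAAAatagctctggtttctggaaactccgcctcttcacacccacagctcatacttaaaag
Ifit3, chr19:34583279-34583528, plus strand: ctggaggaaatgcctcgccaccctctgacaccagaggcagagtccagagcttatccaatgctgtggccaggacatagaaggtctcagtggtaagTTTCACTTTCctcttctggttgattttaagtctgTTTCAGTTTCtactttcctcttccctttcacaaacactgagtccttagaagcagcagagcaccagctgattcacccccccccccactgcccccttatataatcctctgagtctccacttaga
Ifit1, chr19:34640639-34640888, plus strand: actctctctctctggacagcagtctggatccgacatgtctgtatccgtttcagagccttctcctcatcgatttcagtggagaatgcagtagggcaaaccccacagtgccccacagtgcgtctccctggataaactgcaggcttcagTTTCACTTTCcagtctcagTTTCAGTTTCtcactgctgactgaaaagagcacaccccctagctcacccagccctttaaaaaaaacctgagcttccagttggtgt
Rsad2, chr12:26456453-26456702, minus strand: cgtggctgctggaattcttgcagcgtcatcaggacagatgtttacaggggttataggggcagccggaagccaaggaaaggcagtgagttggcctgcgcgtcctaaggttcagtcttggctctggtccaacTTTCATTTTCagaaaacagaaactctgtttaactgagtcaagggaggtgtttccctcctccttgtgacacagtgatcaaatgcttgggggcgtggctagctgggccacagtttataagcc

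The Isg15 promoter held 3 overlapping matches, beginning 78, 72 and 66 bases before the start. Ifit3 held 2 (156 and 122 bases), Ifit1 held 2 (104 and 85 bases) and Rsad2 held 1 (120 bases). The motif was present in 978 of 32851 RefSeq promoters of this length, which is 2.98%. Of the 15 genes with the highest ratio in Tc3, 10 had a promoter in the table and 8 of these held the motif. Of the 12 genes of the interferon list, 7 had a promoter in the table and 4 held it. These are matches of letters and not measured binding sites.

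T cells made up a larger share of the brain cells at day 14 than at day 2 in young mice. At day 14 the shares of all cells were 1.68%, 9.67%, 7.17% and 6.95% in the 4 libraries, at day 2 they were 1.5%, 1.80%, 2.60% and 0.267%, and in sham 1.53%, 1.19%, 2.30% and 1.13%. The first day 14 library lay within the range of the day 2 and sham libraries, and the other three lay above all of them. Means were 6.37% ± 3.36 (SD, n = 4) at day 14, 1.54% ± 0.970 (n = 4) at day 2 and 1.54% ± 0.537 (n = 4) in sham. The difference between days 14 and 2 was 2.05 ± 0.64 (log2, SE) with an adjusted p of 0.0211 by edgeR's quasi-likelihood test on cells per type with Benjamini-Hochberg adjustment, in which 2 of 12 cell types passed (16.7%).

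That call was not stable. An exact permutation of the shares over libraries (two-sided) gave p = 0.0857, where the smallest p possible is 0.0286. With the replicate number as a block over all young libraries, sham included, the difference was 2.17 with an adjusted p of 0.0586 (edgeR). Leaving out 1 library gave 1.69 to 2.43, and the adjusted p (edgeR) passed 0.05 without day 14 replicate 2 (0.0951), replicate 3 (0.0905) or replicate 4 (0.0572) and without day 2 replicate 1 (0.0587) or replicate 4 (0.0530). Without Tc6 the difference was 2.17 with an adjusted p of 0.0213 (edgeR).

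Set against the leukocytes other than microglia, the time course had another form. T cells were 11.2%, 7.48%, 11.3% and 11.1% of these leukocytes in sham, 2.07%, 2.77%, 3.14% and 0.604% at day 2, and 3.64%, 18.8%, 11.4% and 16.5% at day 14. The day 2 libraries lay below every sham and every day 14 library. The number of these leukocytes was 386 to 749 per sham library, 1987 to 2868 at day 2 and 1359 to 2157 at day 14.

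By edgeR the share of these leukocytes was lower at day 2 than in sham, by -2.25 ± 0.54 (log2, SE) with an adjusted p of 0.00132 (6 of 7 cell types passed, 85.7%; exact permutation p = 0.0286). It was higher at day 14 than at day 2, by 2.55 ± 0.54 with an adjusted p of 0.00220 (edgeR; 5 of 7 types passed, 71.4%; exact permutation p = 0.0286). Shares of 1 total depend on each other, and most of the types passed in both. Day 14 and sham did not pass, with 0.30 ± 0.51 and an adjusted p of 0.57 (edgeR; 5 of 7 types, 71.4%). With Tc6 not counted as T cells, which was chosen after seeing the data, these 3 differences were -2.22, 2.68 and 0.45, with adjusted p of 0.00220, 0.00238 and 0.416 (edgeR).

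As shares of all cells, day 2 and sham differed by 0.00 ± 0.62 with an adjusted p of 0.995 (edgeR; 5 of 12 types passed, 41.7%), an SE that leaves room for a difference in either direction. Day 14 was above sham by 2.05 ± 0.64 with an adjusted p of 0.0104 (edgeR; 4 of 12 types passed, 33.3%), and the exact permutation p was 0.0571. Without Tc6 these 2 differences were 0.04 and 2.20, with adjusted p of 0.956 and 0.00781 (edgeR). T cells were therefore called higher than in sham over all cells and not over leukocytes, and the composition of the sorted mix cannot be told apart from the number of T cells in the tissue.

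**Figure D3:**
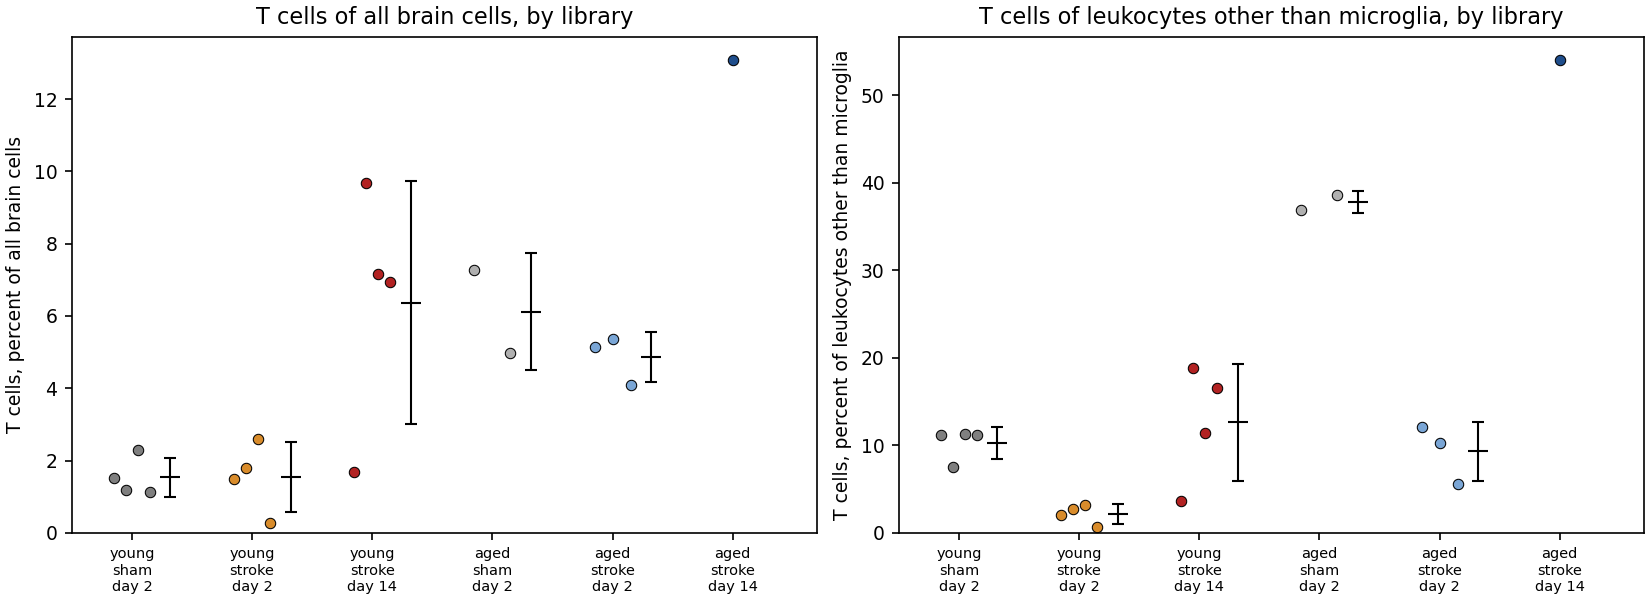
T cells as a percent of all brain cells (left) and of leukocytes other than microglia (right), by group (horizontal axis). Each point is 1 library and black marks are mean ± SD. On the left 3 of the 4 young day 14 libraries (6.95% to 9.67%) lie above all young sham and day 2 libraries; on the right the 4 young day 2 libraries (0.604% to 3.14%) lie below the others.

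Subtypes led by interferon-induced and by regulatory genes were larger shares of T cells at day 14 than at day 2. Tc3, led by interferon-induced genes, was 24.0%, 13.7%, 14.1% and 16.9% of T cells in the 4 day 14 libraries and 1.89%, 10.0% and 5.56% in the 3 day 2 libraries. Tc5, led by regulatory genes, was 18%, 8.98%, 12% and 11% at day 14 and 7.55%, 3.33% and 1.11% at day 2. All the day 14 libraries lay above all the day 2 libraries in both.

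Tc6 went the other way, with 0%, 5.08%, 5.76% and 4.21% at day 14 and 9.43%, 13.3% and 11.1% at day 2. The 0 of 50 cells in the first day 14 library allow a share of up to 6.00%. Tc1, with genes of circulating cells, was 24.0%, 24.6%, 22.5% and 28.9% at day 14 and 41.5%, 50% and 30% at day 2. All the day 14 libraries lay below all the day 2 libraries in both subtypes. Tc1 had the lowest median depth, 383 counts per cell against 532.5 to 681.5 in the other subtypes. The median T cell had 1055, 680, 889 and 359 counts in the 4 day 14 libraries and 720, 343 and 724 in the 3 day 2 libraries. Depth was not a term in any test of the subtype shares.

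Means at day 14 and day 2 were 17.2% ± 4.77 and 5.81% ± 4.06 for Tc3, 12.5% ± 3.88 and 4.0% ± 3.27 for Tc5, 3.76% ± 2.59 and 11.3% ± 1.96 for Tc6 and 25.0% ± 2.76 and 40.5% ± 10.0 for Tc1 (SD, n = 4 and 3). For these 4 of 7 subtypes (57.1%), free of overlap, the two-sided exact permutation test gave p = 0.0571 each, the smallest that 4 against 3 libraries allow, and 0.1 after adjustment over the 7 subtypes. An edgeR test on cells per subtype, chosen after seeing the data, gave adjusted p = 0.0311 for Tc3 (log2 1.43 ± 0.52, SE), 0.0311 for Tc5 (1.67 ± 0.62), 0.0343 for Tc6 (-1.31 ± 0.52) and 0.110 for Tc1 (-0.65 ± 0.34), so that 3 of 7 subtypes passed (42.9%). Each of these calls rests on several libraries: by edgeR the adjusted p of Tc3 rose as far as 0.121 (without day 2 replicate 1), that of Tc5 to 0.179 (without day 2 replicate 3) and that of Tc6 to 0.117 (without day 2 replicate 2). The difference of Tc5 was 1.07 without day 2 replicate 3 and 2.44 without day 2 replicate 1.

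The other subtypes overlapped. Tc2, with genes of NK receptors and cytotoxic cells, was 26.3% ± 2.58 at day 14 and 22.3% ± 12.5 at day 2, and the dividing Tc7 6.72% ± 2.27 and 6.66% ± 4.34. Tc4, led by gamma delta genes, ranged from 0% to 15.7% over the 4 day 14 libraries alone, with a mean of 8.55% ± 7.11 against 9.48% ± 4.87 at day 2.

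Against sham the order of the subtypes was alike; both comparisons use the same day 14 libraries. Tc5 was 1.89%, 0%, 0% and 0% in the sham libraries, in all 1 cell against 94 at day 14, and by the same edgeR test it was higher at day 14 by 4.36 ± 0.91 (log2, SE; adjusted p = 8.42e-05). Tc3 was 1.89%, 5.36%, 4.29% and 4.65% in sham and higher at day 14 by 1.96 ± 0.54 (edgeR, adjusted p = 0.00145). Tc6 was 17.0%, 23.2%, 10.0% and 9.30% in sham and lower at day 14 by -1.70 ± 0.47 (edgeR, adjusted p = 0.00145). These 3 calls held with any 1 library left out. The size of the Tc5 difference rests on the 1 sham cell: without sham replicate 1, which held it, sham was at 0 and the fit gave 6.82, which is no measure of size.

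Tc1 (-0.89 ± 0.32, adjusted p = 0.0125) and Tc4 (1.61 ± 0.61, adjusted p = 0.0152) passed the edgeR test too, making 5 of 7 subtypes (71.4%), but lost the call without some libraries. Without sham replicate 4 the adjusted p (edgeR) was 0.0602 for Tc1 and 0.0628 for Tc4; it was 0.0538 and 0.0607 without day 14 replicate 2, and for Tc4 0.0892 without sham replicate 3 and 0.0839 without day 14 replicate 3. The Tc4 difference was 2.38 without sham replicate 2. The exact permutation test gave p = 0.0286 for Tc1, Tc3, Tc5 and Tc6, whose libraries did not overlap (4 of 7, 57.1%), and 0.05 after adjustment. Between day 2 and sham no subtype passed by edgeR (0 of 7, 0%), and the lowest adjusted p was 0.168.

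**Figure D4:**
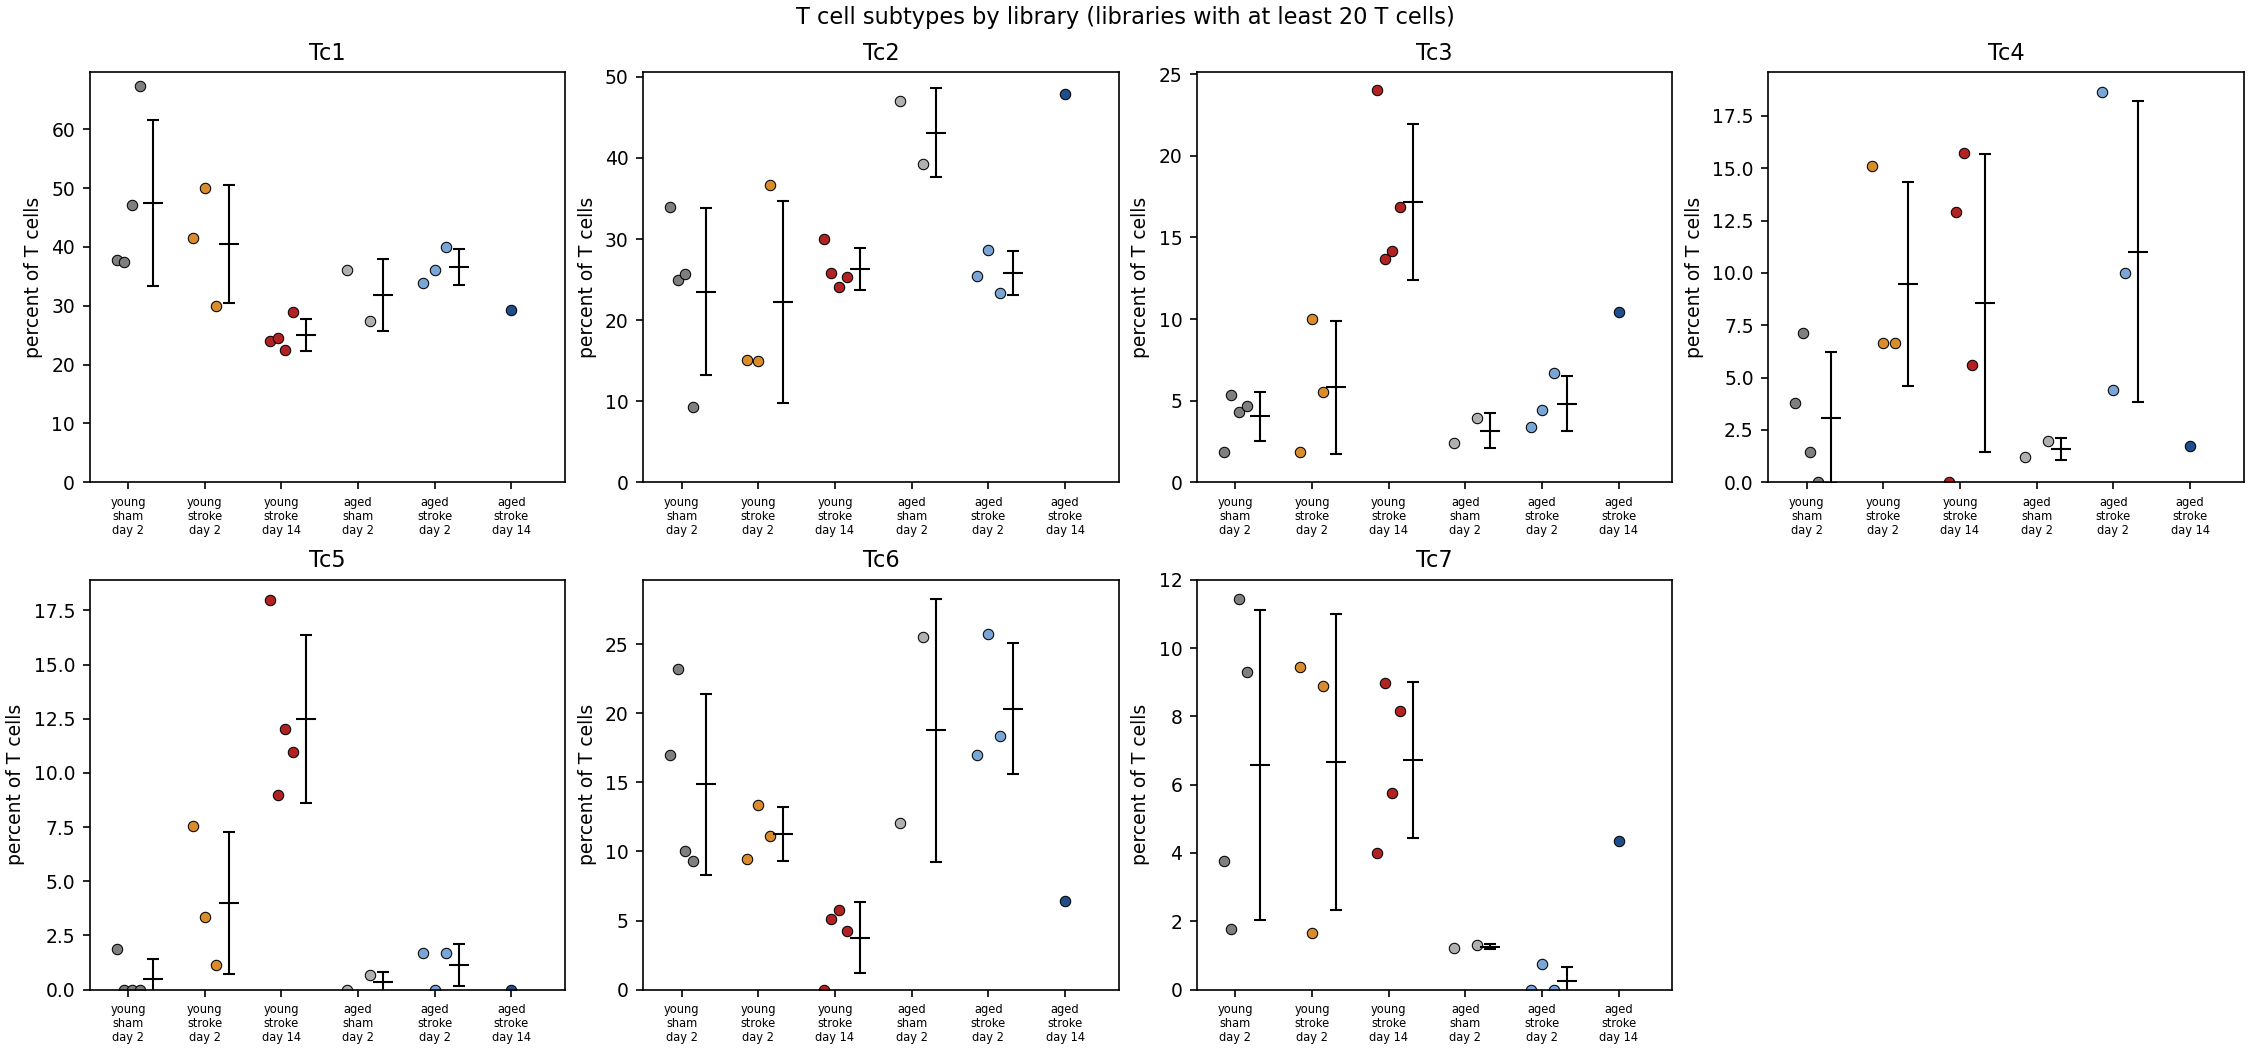
Each panel shows 1 subtype as a percent of the T cells of a library (vertical axis) by group (horizontal axis), for libraries with at least 20 T cells. Points are libraries, and black marks are mean ± SD, cut at 0. In young mice Tc3 and Tc5 lie higher at day 14 (13.7% to 24.0% and 8.98% to 18%) than at day 2, and Tc1 and Tc6 lie lower.

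Gene levels were then compared over all T cells of a library, as summed counts, with 1048 genes tested in the young groups. The clearest gene was Ifi27l2a, an interferon-inducible gene (chr12:103442167-103443680, minus strand, GRCm38/mm10). Its level was 413, 323, 519 and 498 CPM in the sham libraries, 613, 498 and 1241 CPM at day 2 and 2456, 1628, 3934 and 2568 CPM at day 14. Every day 14 library lay above every day 2 and sham library. Means were 2646 ± 955 CPM (SD, n = 4) at day 14, 784 ± 400 CPM (n = 3) at day 2 and 439 ± 89.7 CPM (n = 4) in sham.

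Ifi27l2a was higher at day 14 than in sham by 2.54 ± 0.37 (log2, SE) with an adjusted p of 0.0204 (edgeR's quasi-likelihood test, Benjamini-Hochberg), the only 1 of 1048 genes called (0.0954%; 90 genes, 8.59%, at an unadjusted p under 0.05). The call was lost without any 1 of the 4 sham libraries (adjusted p 0.0612 to 0.0841, edgeR) and without Tc3, where it was 2.77 with an adjusted p of 0.145. Day 14 against day 2 was 1.77 ± 0.39 with an adjusted p of 0.677 (edgeR). There, 0 of 1048 genes were called by edgeR (0%) and 24 (2.29%) had an unadjusted p under 0.05, while DESeq2 called 1 gene, Ifi27l2a, with 1.75 and an adjusted p of 0.0129.

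The level of Ifi27l2a differed between subtypes as well as between groups. In the pooled cells of sham, day 2 (with the 12 cells of the fourth library) and day 14 it was 580, 665 and 2675 CPM in Tc1, 127, 1452 and 1331 CPM in Tc2, and 2185, 1866 and 4068 CPM in Tc3. In Tc5 it was 2753 CPM in 7 day 2 cells and 6961 CPM in 94 day 14 cells. In Tc7 it was 595, 642.5 and 2336 CPM in the 3 groups, and in Tc4 and Tc6 it was 735 and 261 CPM at day 14. In these pooled cells Tc1, Tc3 and Tc7 had their highest level at day 14, and Tc5 was higher at day 14 than at day 2. Tc2 stood at close levels at day 2 and day 14. Tc3 had 9 sham and 12 day 2 cells, and Tc7 had 15 and 14. Of the day 2 Tc2 cells 33 came from replicate 3, against 8, 9 and 3 from replicates 1, 2 and 4. Pooled cells give no spread between libraries, and these levels were not tested.

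Other cells of the same brains had Ifi27l2a counts too. Monocyte-derived cells held 720 to 1129 CPM in the sham libraries, 830 to 3010 at day 2 and 1525 to 2654 at day 14, and microglia 7.98 to 24.9, 261 to 1753 and 889 to 1853 CPM. Dendritic cells held 453 to 595 CPM in sham, 602 to 2063 at day 2 and 1088 to 1492 at day 14. In libraries with at least 20 of them, B cells held 143 to 733 CPM in sham and 543 and 1204 CPM at day 2. At day 14 B cells held 772, 1392 and 845 CPM in replicates 2, 3 and 4. NK cells of the same day 14 libraries held 20.0, 119 and 108 CPM in replicates 2, 3 and 4, where T cells held 1628, 3934 and 2568 CPM. The 10 markers of monocytes and macrophages summed to 224 to 933 CPM in the T cells of the sham libraries, 986 to 1452 CPM at day 2 and 346 to 1990 CPM at day 14, and their part in the gene levels was not tested. Of these markers 5 were at 0 throughout sham (Ms4a7, Spp1, Arg1, Fn1 and Chil3), 1 throughout day 2 (Fn1) and 3 throughout day 14 (Spp1, Chil3 and F13a1).

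The rest of the interferon list gave no call by edgeR. Of its 12 genes 5 passed the low-count filter, which asked for at least 214 CPM in at least 3 of the 11 young libraries. Only Ifi27l2a and Bst2 reached this without the day 14 libraries. The other 3, Isg15 and Isg20 among them, passed only with the day 14 libraries, so that their higher level there was in part fixed by the filter, and no count over the list is read. Between days 14 and 2 the libraries of Ifi27l2a and Bst2 did not overlap, where 53.7% of all genes tested had a higher estimate at day 14 and 2.29% were higher without overlap. Between day 14 and sham the libraries of Ifi27l2a did not overlap and those of Bst2 did, where 51.3% of all genes had a higher estimate and 3.53% were higher without overlap. The choice of list was made with earlier results of these data known, and the Tc3 cells that carry these genes are among the cells summed.

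Bst2, which encodes the virus-tethering protein tetherin, was at 391, 416, 536 and 347 CPM at day 14, at 200, 243 and 300 CPM at day 2 and at 438, 160, 74.3 and 123 CPM in sham. Its difference between days 14 and 2 was 0.83 ± 0.38 (log2, SE) with an adjusted p of 0.999 (edgeR), and the first sham library lay within the day 14 range.

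Isg20, an interferon-stimulated exonuclease gene that passed the filter only with the day 14 libraries, had no count in the 4 sham libraries, 40.0, 186 and 184 CPM at day 2, and 431, 242, 294 and 218 CPM at day 14. Pooled over the group, its level was at least 4.46-fold (day 2) and at least 8.69-fold (day 14) higher than 3 counts over the sham group would give. The adjusted p of edgeR was 0.471 and 0.0816, and DESeq2 called it at day 14 against sham (adjusted p = 0.00204). Isg15 was at 631, 302, 406 and 312 CPM at day 14, at 119, 624 and 199 CPM at day 2 and at 171, 80.3, 260 and 184 CPM in sham. It too passed the filter only with day 14, and it overlapped between days and not between day 14 and sham (1.16 ± 0.53, adjusted p = 0.570, edgeR).

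**Figure D5:**
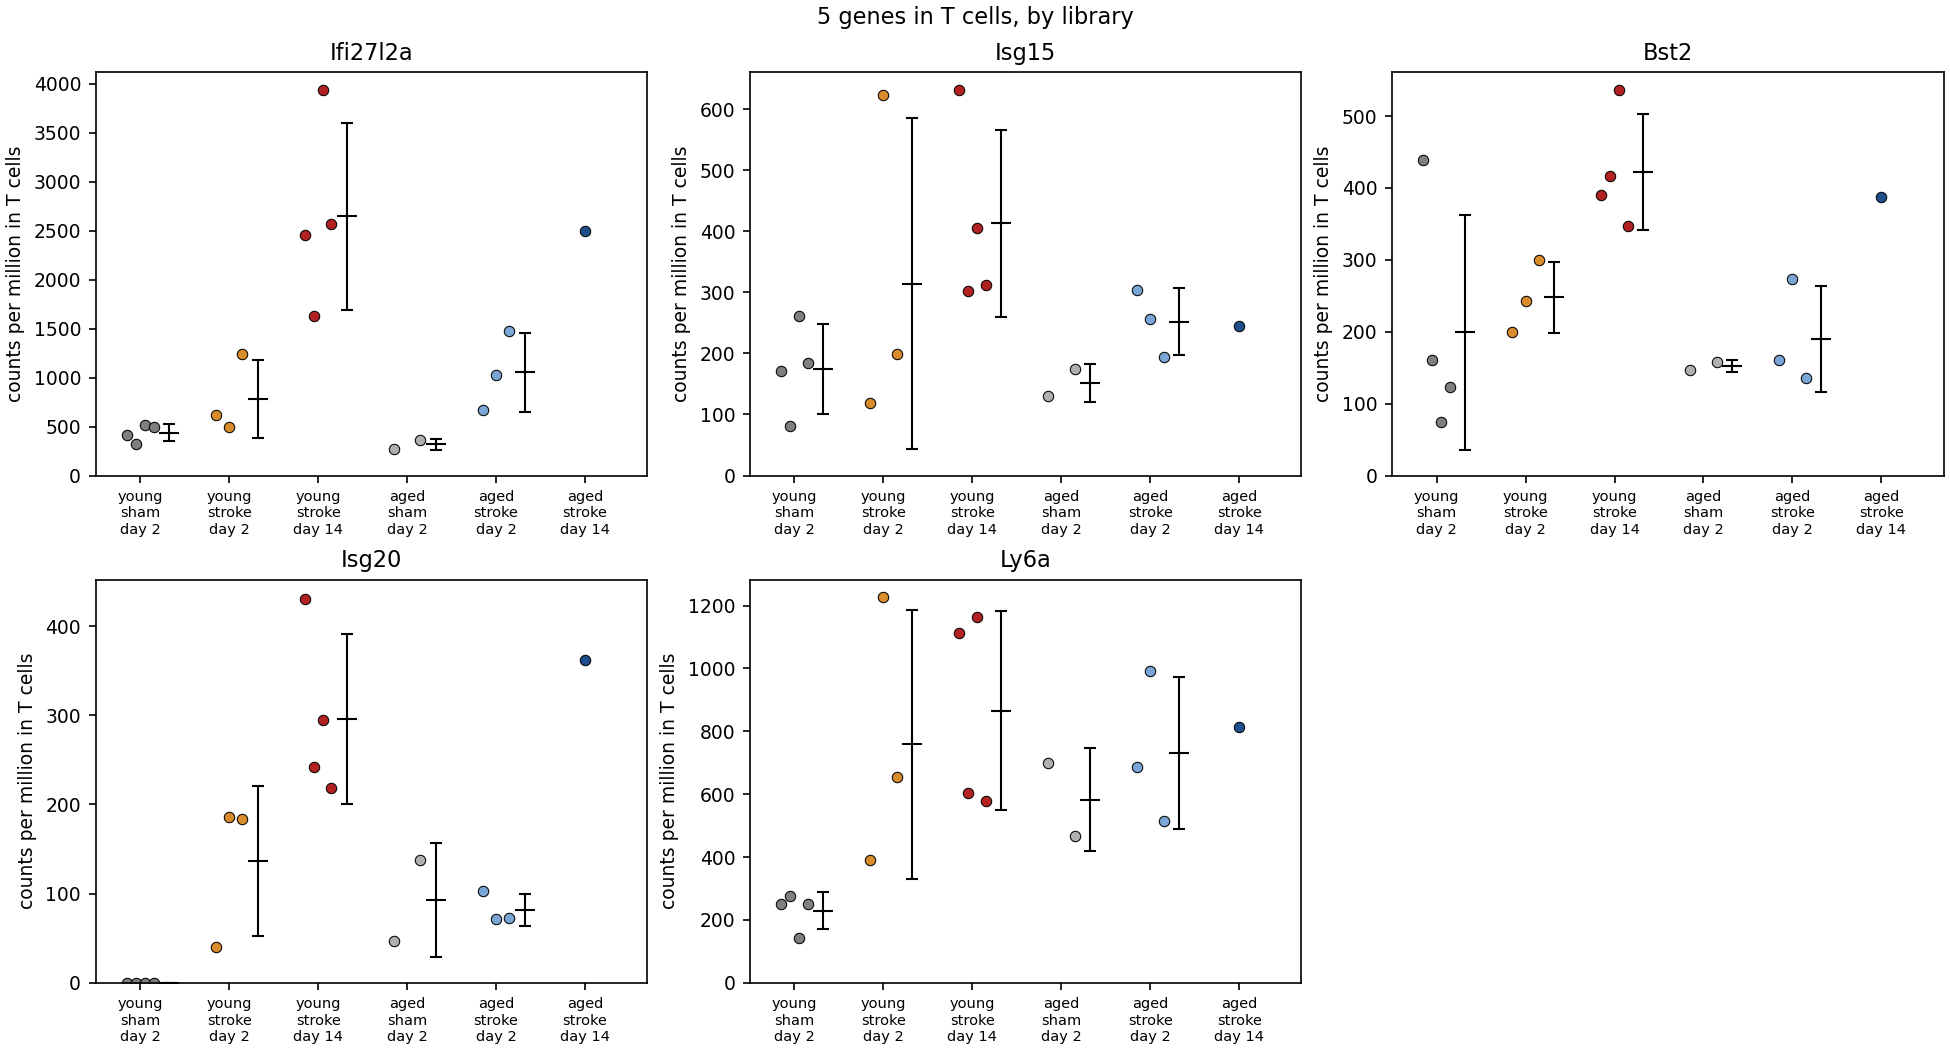
CPM in T cells (vertical axis) of 5 genes by group (horizontal axis); points are libraries with at least 20 T cells, black marks are mean ± SD. The young day 14 libraries lie above the young sham libraries for every gene shown but Bst2, and above the young day 2 libraries for Ifi27l2a, Bst2 and Isg20.

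Beyond the lists, the genes with the smallest p in each direction are named, none of them called between days 14 and 2 by edgeR. Higher at day 14 in estimate were Sp110, an interferon-induced nuclear body gene, at 440, 275, 435 and 351 CPM against 123, 217 and 199 CPM (1.04 ± 0.27, log2 and SE, adjusted p = 0.779). The sham libraries stood at 426, 303, 293 and 271 CPM, so that day 14 overlapped with sham (0.20 ± 0.25) and day 2 lay below sham without overlap (-0.84 ± 0.30). Trim30a, another interferon-induced gene, was at 584, 266, 528 and 829 CPM against 354, 182 and 183 CPM (1.20 ± 0.40), with 286, 222, 371 and 326 CPM in sham. Slfn8, of the schlafen family, passed the filter only with the day 14 libraries and gave 1.63 ± 0.61, and Ctsw, a protease gene of cytotoxic lymphocytes, gave 1.00 ± 0.38 (1.63 without day 2 replicate 3).

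The 5 genes named in the other direction were Emb, Calca, Lmo4, Hilpda and Lilr4b, each at its highest in Tc6. Calca, Hilpda and Lilr4b passed the filter only with the day 2 libraries, so that their lower level at day 14 was in part fixed by it. Emb, which encodes the membrane glycoprotein embigin, was at 364, 299, 473 and 382 CPM at day 14 and at 767, 1149 and 946 CPM at day 2, without overlap, as were 2.39% of all genes lower at day 14 (-1.28 ± 0.31, adjusted p = 0.715, edgeR). In sham it was at 723, 762, 446 and 238 CPM, overlapping with day 14 (-0.59 ± 0.31) and below every day 2 library. Emb stood at 1280 CPM in Tc6, where Lmo4 stood at 1291, Hilpda at 867 and Lilr4b at 445 CPM, the highest of the 7 subtypes for each. Calca was at 0, 60.2, 69.8 and 11.9 CPM at day 14 and at 0, 2967 and 459 CPM at day 2, where replicate 2 held most of it (-4.58 ± 1.47, and -2.37 without that library). Lmo4, which encodes a LIM-only regulator, was at 13.2, 133, 113 and 71.7 CPM against 364, 446 and 319 CPM (-1.96 ± 0.68).

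Hilpda, the gene of a hypoxia-inducible lipid droplet protein, gave -1.30 ± 0.40 and Lilr4b, a receptor gene, -1.19 ± 0.38 (log2, SE). Tc6 was 11.3% of T cells at day 2 and 3.76% at day 14. With its cells left out, which was chosen after seeing the data, Emb gave -0.93, and the other 4 genes did not pass the low-count filter.

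No gene of the regulatory list was called between days 14 and 2 by edgeR or lay free of overlap. Of its 12 genes 5 passed the filter, and Ctla4, Tnfrsf4 and Capg passed only with the day 14 libraries, so that a higher level there was in part fixed by the filter. The other 2 gave 0.04 ± 0.41 (Tnfrsf18, the costimulatory receptor GITR) and 1.22 ± 0.65 (Il2ra, the alpha chain of the interleukin 2 receptor; log2, SE). Ctla4 was at 535, 267, 506 and 395 CPM at day 14, at 268, 150 and 203 CPM at day 2 and at 205, 79.3, 148 and 0 CPM in sham (day 14 against day 2 1.04 ± 0.42, against sham 1.77 ± 0.45 with an adjusted p of 0.220, edgeR). The day 14 and day 2 libraries overlapped by a narrow margin, at 267 and 268 CPM.

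Tnfrsf4 was at 284, 188, 636 and 278 CPM at day 14, at 259, 112 and 135 CPM at day 2 and at 103, 0, 0 and 0 CPM in sham, where it rests on 3 counts. Its direction against sham was in part fixed by the filter, whose level no sham library and 1 day 2 library reached. It gave 3.43 ± 0.80 against sham (adjusted p = 0.204, edgeR), 3.02 to 7.89 with 1 library left out in the 5 cases where it still passed the filter (7.89 without sham replicate 1, which leaves sham at 0; adjusted p = 0.110), and 4.71 with an adjusted p of 0.0353 once Tc6 was left out. Foxp3 had no count in the young sham and the 3 young day 2 libraries and was at 117, 18.5, 69.4 and 84.5 CPM at day 14, on 39 counts in all. Over the group this is at least 2.95-fold higher than 3 counts at day 2 would give and at least 1.93-fold higher than 3 counts in sham, and Foxp3 did not pass the filter for a test. The day 14 group held 853 T cells, against 215 at day 2 and 222 in sham.

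Of the 12 genes of the naive and circulating list 5 were tested, and none was called by edgeR. Klf2, a transcription factor gene of quiescent T cells, and Il7r, the interleukin 7 receptor gene, passed the filter whichever group was left out of it. Lef1 and Tcf7 passed only with the sham libraries and S1pr1 only with day 2 and sham together, so that their lower level at day 14 than in sham was in part fixed by the filter. Between days 14 and 2 all 5 had a lower estimate, with a median of -0.38 against 0.03 over all genes tested; S1pr1 (-0.76 ± 0.44) had passed only with the day 2 libraries. Klf2 was free of overlap there, at 250, 289, 294 and 243 CPM at day 14 and 299, 335 and 428 CPM at day 2 (-0.38 ± 0.38), a difference within its SE. Of all genes tested between these days, 2.39% were lower without overlap and 53.7% had a higher estimate. Tcf7 was at 117, 133, 130 and 200 CPM at day 14 and at 305, 240, 221 and 311 CPM in sham, without overlap (-0.89 ± 0.31, adjusted p = 0.487, edgeR). Il7r was at 650, 546, 834 and 761 CPM at day 14 and at 1158, 1025, 1112 and 1003 CPM in sham, without overlap (-0.66 ± 0.22, adjusted p = 0.487), and Klf2 gave -0.59 ± 0.38 there, with overlap. Without overlap and lower, there were 2.96% of all genes tested in that comparison.

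Of the other lists of T cell genes, the 7 with at least 3 genes past the filter are given, by those genes alone. The cytotoxic list had 5 of 13 genes tested, 2 higher and 3 lower in estimate at day 14 than at day 2 (median -0.12), the activation list 4 higher and 5 lower (-0.01), the receptor complex 5 higher and 7 lower (-0.03), chemokine receptors and adhesion 4 higher and 5 lower (-0.10), type 1 genes 3 higher and 1 lower (0.46), tissue residency 3 higher and 1 lower (0.20) and proliferation 2 higher and 1 lower (0.26). No member was called by edgeR. Hopx and Klrk1, higher in estimate, passed the filter only with the day 14 libraries. Cd247, Lcp2, Nr4a1, Itgb2, S1pr1 and Top2a, lower in estimate, passed only with the day 2 libraries. Their direction was in part fixed by the filter, and no count over these lists is read. Of all genes tested, 53.7% had a higher estimate at day 14. The CD3 genes Cd3d, Cd3e and Cd3g gave -0.12, -0.04 and 0.11.

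Between day 2 and sham 0 of 1048 genes were called by edgeR (0%) and 0 by DESeq2; 75 (7.16%) had an unadjusted p under 0.05. The genes of smallest p included Ifngr1, a chain of the interferon gamma receptor, at 1354, 1560 and 1672 CPM at day 2 against 990, 667, 544 and 320 CPM in sham (1.20 ± 0.33, log2 and SE, adjusted p = 0.471). Ly6a, which encodes Sca-1, was at 391, 1229 and 655 CPM against 249, 275, 143 and 250 CPM (1.61 ± 0.45), and Capg, an actin-capping gene on the regulatory list, at 407, 217 and 185 CPM against 67.8, 114, 37.1 and 62.8 CPM (1.83 ± 0.53). Sdf4, which encodes a calcium-binding protein, gave 1.26 ± 0.36.

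Lower in estimate at day 2 were Bcl2, a gene against apoptosis, at 195, 186 and 310 CPM against 547, 584, 441 and 545 CPM (-1.22 ± 0.32, log2 and SE, adjusted p = 0.471, edgeR) and Diaph1, a formin gene, at 74.1, 146 and 143 CPM against 304, 349, 257 and 294 CPM (-1.43 ± 0.40). Diaph1 and Mia2 passed the filter only with the sham libraries. Mia2 gave -1.21 ± 0.38 and Tmsb10 -0.76 ± 0.24. Of the interferon list Ifi27l2a, Bst2 and Isg15 gave 0.77 ± 0.39, 0.16 ± 0.45 and 0.64 ± 0.60 at day 2 against sham, where 49.8% of all genes had a higher estimate, and their libraries overlapped. Ifngr1, Ly6a, Capg, Bcl2 and Diaph1 were free of overlap, as were 4.29% of all genes higher and 3.91% lower. The monocyte and macrophage markers, given above, were also higher without overlap at day 2 than in sham in sum, and their part in these estimates was not tested.

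Against sham, day 14 had the same leaning in several of these genes; the sham libraries are shared by both comparisons. Bcl2 was at 249, 179, 222 and 361 CPM at day 14 (-1.10 ± 0.27, log2 and SE, adjusted p = 0.211, edgeR), Ly6a at 1113, 605, 1164 and 579 CPM (1.86 ± 0.41, adjusted p = 0.204) and Sdf4 at 301, 307, 536 and 384 CPM (1.30 ± 0.32, adjusted p = 0.211). Zfp36l2, an RNA-binding protein gene, was at 215, 163, 165 and 299 CPM at day 14 against 662, 470, 504 and 294 CPM in sham (-1.29 ± 0.30, adjusted p = 0.204). Fam189b (-1.51 ± 0.36) and Bzw2 (-1.26 ± 0.40) passed the filter only with the sham libraries. Lmo4 gave -2.08 ± 0.68, which was -0.89 without sham replicate 2.

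The share of Cd8a and Cd8b1 counts among Cd4, Cd8a and Cd8b1 counts was compared between groups. As a share of counts, with 2 Cd8 genes against 1 Cd4 gene, it does not give the balance of CD8 and CD4 cells. It was 83.3%, 86.7%, 83.5% and 89.9% at day 14, 66.7%, 82.4% and 90.5% at day 2 and 44.4%, 100%, 100% and 81.0% in sham. The groups overlapped. The mean difference between days 14 and 2 was 6.02 percentage points (85.8% ± 3.11, SD, n = 4, against 79.8% ± 12.1, n = 3; exact two-sided permutation p = 0.457, smallest possible 0.0571). The share rests on 0 to 35 Cd4 counts per library, and without day 2 replicate 1 the difference was -0.567. No library with at least 20 T cells had more than 1 cell with counts of both Cd4 and Cd8. Cells with Cd8 alone and with Cd4 alone numbered 11 and 5, 42 and 15, 39 and 27, 90 and 20 at day 14. At day 2 they numbered 8 and 8, 5 and 3, 32 and 7. Neither gene had a count in 34 of 50, 199 of 256, 124 of 191 and 246 of 356 cells at day 14. At day 2 this held for 37 of 53, 52 of 60 and 50 of 90 cells.

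Genes of effector cytokines were sparse in the summed T cells. In young mice, Il17a had no count in any sham library or any of the 3 day 2 libraries and was at 0, 147, 311 and 0 CPM at day 14, in the replicates where Tc4 was 0%, 12.9%, 15.7% and 5.62% of T cells. In the 3 day 2 libraries, with no Il17a count, Tc4 was 15.1%, 6.67% and 6.67% of T cells. Trdc had no count in young sham, 387, 0 and 94.5 CPM at day 2 and 33.4, 354, 479 and 161 CPM at day 14. Ifng had no count in young sham, 52.6, 0 and 270 CPM at day 2 and 0, 85.4, 83.5 and 64.7 CPM at day 14. Gzmb, which encodes the cytotoxic protease granzyme B, was at 378, 160, 37.2 and 0 CPM in sham, 230, 1277 and 891 CPM at day 2 and 201, 337, 498 and 286 CPM at day 14, with overlap between all 3 groups.

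In aged mice T cells were a larger share of the leukocytes at day 2 than in young mice. Of all cells they were 5.14%, 5.36% and 4.08% in the 3 aged stroke day 2 libraries, above the 0.267% to 2.60% of the 4 young ones. By edgeR this was 1.66 ± 0.65 (log2, SE) with an adjusted p of 0.182 (0 of 12 types passed, 0%; exact permutation p = 0.0571, the smallest possible). Of leukocytes other than microglia they were 12.1%, 10.3% and 5.54%, with a difference of 2.10 ± 0.47 and an adjusted p of 0.00440 (edgeR; 1 of 7 types passed, 14.3%; exact permutation p = 0.0571). Without Tc6 the difference was 1.52 (adjusted p = 0.194) of all cells and 1.96 (adjusted p = 0.0146) of these leukocytes (edgeR).

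The aged sham libraries were high as well, with 7.26% and 4.99% of all cells and 36.9% and 38.6% of these leukocytes. The effect of stroke at day 2 was not shown to differ with age, with an interaction of 0.22 ± 0.70 (log2, SE, adjusted p = 0.760) over leukocytes and -0.33 ± 0.98 (adjusted p = 0.852) over all cells (edgeR, chosen after seeing the data). Age is joined with sex here, since the young mice were all male, and cannot be told apart from it in the female libraries. The aged tables also list more genes (27514 against 19704).

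Subtypes in aged mice after stroke at day 2 were 36.6% ± 3.10 (SD, n = 3) Tc1, 25.8% ± 2.69 Tc2, 4.82% ± 1.68 Tc3, 11% ± 7.17 Tc4, 1.12% ± 0.971 Tc5, 20.3% ± 4.72 Tc6 and 0.245% ± 0.425 Tc7. Tc6 was 16.9%, 25.7% and 18.3% against 9.43%, 13.3% and 11.1% in young mice, and Tc7 was 0%, 0.735% and 0% against 9.43%, 1.67% and 8.89%. These 2 of 7 (28.6%) did not overlap. For Tc6 the exact permutation p was 0.1, the smallest possible, and the adjusted p was 0.3; by edgeR it was 0.252, and 0 of 4 subtypes tested passed (0%). Tc7 had too few cells for the test.

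Of 1215 genes tested between aged and young mice at day 2 of stroke, 0 were called by edgeR (0%) and 0 by DESeq2; 54 (4.44%) had an unadjusted p under 0.05. Bcl2 had the smallest p, at 653, 677 and 537 CPM in aged against 195, 186 and 310 CPM in young T cells (1.46 ± 0.29, log2 and SE, adjusted p = 0.312). The aged sham libraries were at 544 and 773 CPM, where the young sham libraries stood at 441 to 584 CPM. Rgs2, a regulator of G-protein signalling, was at 1157, 1126 and 1279 CPM against 481, 310 and 294 CPM (1.80 ± 0.52). Both were free of overlap, as were 4.69% of all genes higher and 5.76% lower in aged mice.

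Banf1, which encodes a chromatin-binding protein, was at 141, 82.2 and 74.8 CPM in aged against 397, 254 and 319 CPM in young T cells (-1.58 ± 0.39, log2 and SE, adjusted p = 0.813, edgeR). Ly6c2, a surface protein gene of monocytes and activated CD8 cells, was at 368, 208 and 544 CPM against 635, 551 and 1667 CPM (-1.32 ± 0.51), and gave -0.62 without young day 2 replicate 3. Banf1, Nono and Mdh2 passed the filter only with the young day 2 libraries and Skil only with the aged ones. Skil gave 1.63 ± 0.50, Aff4 1.28 ± 0.36, CT010467.1 2.81 ± 0.85 (4.64 without young day 2 replicate 3), Nono -1.51 ± 0.56, Mdh2 -1.15 ± 0.43 and Pfn1 -1.08 ± 0.42. The interferon list did not lean to one age, with 2 of 4 tested genes higher in estimate (50.5% of all genes) and a median of 0.01.

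The single aged library at day 14 of stroke, with 345 T cells and no replicate, entered no test. T cells were 13.1% of its cells and 54.0% of its leukocytes other than microglia. Its T cells were 47.8% Tc2, 10.4% Tc3, 6.38% Tc6 and 4.35% Tc7, and no Tc5 cell was among the 345, which allows a share of up to 0.870%. Ifi27l2a stood at 2494 CPM, against 275 and 359 CPM in the aged sham libraries and 669, 1025 and 1475 CPM in those of aged stroke day 2. Foxp3 had no count in it, and Ctla4 stood at 27.6 CPM, below the 267 to 535 CPM of the young day 14 libraries.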

How the data were processed

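Drop-seq measured single-cell RNA in 18 brain libraries, which are analysed here, and 11 blood libraries, which are counted but not otherwise used. As deposited by the authors, the matrices hold estimated counts per gene and cell that are not whole, with a fraction over 0.9 in 38.2% to 86.6% of the values above 0 of a brain library; the step that made them is not given in the sources used here. Build mm10 and the tool Seurat are named in the submitters' processing notes, without roles or versions. The authors' cell tables, per the file headers, give counts and genes per cell, the percent of mitochondrial counts and 2 cell type codes, of which the parent code Tc chose the cells. The members and gene lists were chosen with earlier results of these data known.

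Counts were summed over the T cells of each library with at least 20 of them and rounded. They were tested with edgeR 4.0.16 (R 4.3.3; TMM scaling, low-count filter, quasi-likelihood test, Benjamini-Hochberg adjustment over all genes tested, called under 0.05), the 3 young groups in 1 fit. Shares were tested with edgeR on cells per type and by exact two-sided permutation over libraries; DESeq2 1.42.0 was an alternative. Levels are CPM of the summed counts. Each value not whole leaves a gap to the next whole count, which summed to 1.33% to 10.8% of T cell counts in the libraries tested and 61.9% in the one left out. The code was run on simulated counts and cell numbers with planted changes and a fixed spread between libraries. That run does not measure how well smaller changes are found in these libraries. Intervals cover counting error only. Named genes were, per comparison and direction, the 10 called with the largest change, without overlap and at a mean of at least 20 CPM, or where fewer than 5 were called, the 5 of smallest p, besides list members. Predicted genes with Gm or Rik names, mitochondrial, ribosomal and receptor variable genes, and genes over 10 times higher in another brain cell type, were not named. CT010467.1, which has no such name, was kept. A few genes that met these rules are not reported here.

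Same-numbered libraries of stroke days 2 and 14 deviated together (correlations 0.194, 0.620 and 0.800 across genes), so the numbers were taken to pair them, on this correlation and not on a label. Differently numbered libraries of these days reached 0.443 (day 2 replicate 2 with day 14 replicate 1) and 0.197 (day 2 replicate 1 with day 14 replicate 4), and the basis is weak for replicate 1. Numbers shared with sham did not (-0.252 to 0.282). The replicate block of an edgeR fit still covered all young libraries, sham included, where the numbers have no such basis. The labels name no batch. Scrublet marked 25 of 55268 cells (0.0452%, below 0.5%), and leaving out doublets was therefore not run. Fewer T cells among those sorted and fewer T cells in the tissue cannot be told apart, and p-values measure the spread between pooled libraries.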

Additional observations from a re-analysis of the deposited data

Results flagged for a closer look

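In 6 of 88 groups of libraries examined, 1 library stood apart by Dixon's criterion, which chance meets in about 1 in 20 groups. T cells were 7.48% of leukocytes other than microglia in young sham replicate 2, against 11.1% to 11.3% in the other 3 sham libraries. Young sham replicate 1 held the only Tc5 cell of the sham group (1.89% of its T cells) and the only Tnfrsf4 level above 0 there (103 CPM). With the other sham libraries all at 0, any value above 0 meets the criterion, and the rate of 1 in 20 does not apply to these flags. Mia2 stood at 157 CPM in young sham replicate 1, below the other sham libraries, and at 266 CPM in young stroke day 14 replicate 4, above the others of its group. Fam189b stood at 66.7 CPM in young stroke day 14 replicate 1, below the others of its group.

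The aged stroke day 14 library, which entered no comparison, lay above both aged sham libraries in T cells as a share of all cells (13.1%) and of leukocytes other than microglia (54.0%) and in Ifi27l2a (2494 CPM). With 1 library these differences were not tested.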

How the results depend on the processing

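Differences in T cell share are log2 with adjusted p by edgeR unless a permutation is named; the cause of each change below was not tested. For day 14 against day 2 the share gave 2.51 (adjusted p 0.0744) at 800 or more counts per cell, 2.05 with an exact permutation p of 0.0857, 2.17 (0.0586) with the replicate block, and 1.69 to 2.43 with 1 library left out. For day 2 against sham it was -2.25 (0.00132) over leukocytes other than microglia, -0.14 (0.853) with the replicate block and -0.37 to 0.36 with 1 library left out. For day 14 against sham it was 0.30 (0.57) over these leukocytes, 2.05 with an exact permutation p of 0.0571, and 1.78 to 2.37 with 1 left out, called each time. For aged against young it was 2.10 (0.00440) over these leukocytes and 1.31 to 2.04 with 1 left out, not called. Over these leukocytes without Tc6 it was -2.22 (0.00220) for day 2 against sham, 0.45 (0.416) for day 14 against sham and 1.96 (0.0146) for aged against young. Among subtypes at day 14 against day 2, the edgeR test chosen after seeing the data called Tc3 (11.4 percentage points, adjusted p 0.0311), Tc5 (8.5, 0.0311) and Tc6 (-7.53, 0.0343), where the exact test cannot. Without 1 library Tc2 ran from 0.406 to 11.2, Tc4 from -3.31 to 1.93 and Tc7 from -2.44 to 1.44 percentage points. Tc7 was -0.43 without Tc6 in the total. For Tc6 the exact test was not run without day 14 replicate 2 or 4 or at 500 or more counts, where fewer than 50 cells were left; by edgeR it gave log2 -1.39 (0.0506) and -1.25 (0.0813) without these replicates. Genes called numbered 1 and 3 by DESeq2 for day 14 against day 2 and against sham (edgeR 0 and 1). With no filter on low counts they numbered 12, 13, 81 and 5 for day 14 against day 2, day 2 against sham, day 14 against sham and aged against young. For day 14 against sham they were 0 at 50 T cells per library, 0 without Tc3, 2 without Tc6 (Ifi27l2a and Tnfrsf4) and 0 to 1 without 1 library. DESeq2 called Ifi27l2a, Isg20 and Rps3a1 there. The Cd8 share differed by -0.567 to 11.3 percentage points with 1 library left out, and the paired difference (replicate block) was 4.66. The replicate block changed no other call. Without TMM the median of all genes moved to 0.16 (day 2 against sham) and 0.15 (day 14 against sham). In all, 174 of 218 alternative values of the main results and 653 of 670 of the named genes were unchanged. For a share or a gene this means the same direction and side of the threshold. For a number of genes called it means an equal or similar number, often 0 against 0. Exact tests of subtype shares with 1 library left out could not reach the threshold, and nearly all named genes were uncalled at the outset. The tally is therefore no measure of robustness. Of the other main values 15 reversed, 13 moved, 11 were weaker and 5 stronger; of the named genes 11 were stronger and 6 weaker. Depth may limit the gene tests, whose libraries held 15809 to 215859 T cell counts each, and this was not tested.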
